A study of Mus musculus with 4 samples.

Results

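Surface proteins of tuft cells were followed through 4 sorted populations of mouse intestinal tumour cells by 7 genes: Siglecf, Ptprc, Cd300lf, Ly6g6d, Ly6g6f, Cd24a and Gprc5c. The genes were picked as tuft cell surface genes and were selected on their log2 levels over the same 4 arrays, so these levels and differences describe the choice and were not tested. Of 22911 genes with a named probe on the array these are 7, measured by 13 probes: Ly6g6f had 1 probe and each of the other 6 genes had 2.

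The tumour cells came from Lgr5CreERT2/+; Ctnnb1lox(ex3)/ox(ex3) mice, taken 14 days after tamoxifen. Cre is driven there from the Lgr5 locus, so recombination begins in cells that express Lgr5, a receptor of intestinal stem cells, and removal of the floxed exon of Ctnnb1 leaves a stabilised beta-catenin. All populations share this genotype, the tamoxifen and a gate for the epithelial surface protein EpCAM, and IL17RB, a receptor subunit for IL-25, was the tuft marker. With the marker there were Lgr5+ cells (Lgr5+ tuft marker+) and Lgr5- cells (Lgr5- tuft marker+), and without it again Lgr5+ cells (Lgr5+ tuft marker-) and Lgr5- cells (Lgr5- tuft marker-). Each population was 1 array, so no difference was tested and no p-value is given. The number and age of the mice and the part of the intestine are not given in the sources used here, and no tissue without tumour is among the arrays.

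Tuft cells, a sparse chemosensory type of the gut epithelium, detect luminal metabolites and release IL-25 and eicosanoids. Several of their surface proteins were first described on blood cells. Siglecf encodes a sialic acid-binding lectin of eosinophils and intestinal tuft cells, Ptprc the leukocyte phosphatase CD45, and Cd300lf an inhibitory receptor that murine norovirus uses to enter tuft cells. Ly6g6d and Ly6g6f lie in the Ly6 cluster of the major histocompatibility region, Cd24a encodes a small glycosylated protein held by a lipid anchor, and Gprc5c an orphan class C G protein-coupled receptor.

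Levels below are log2 processed signals minus the 75th percentile of the array, so 0 is that percentile. Errors are those of the scanner software for the spots, carried to the difference, and leave out variation between animals, sorts and labelling. A probe not well above background has only a bound, and its difference is then given as "at least", against the lowest level among well-detected probes of that array or the probe's own level, whichever was higher. These floors lay between -3.86 and -3.41. A gene is represented by its brighter probe, and the other probe is given beside it.

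RefSeq promoter sequences (GRCm38.p6, 250 bases before the start, on the gene's strand) were matched for 5 of the 7 genes, in 8 windows. They are shown for 5 starts. The tuft cell regulator Pou2f3 belongs to a class of factors that bind the octamer ATGCAAAT, and a part of Pou2f3 in these levels was not tested. Capitals mark every match, on either strand, to 9 motifs. They are the octamer, its core TGCAAAT, a RUNX class form spelled TGTGGTT, an ETS class form spelled ACTTCCT, a longer ETS form bound by the myeloid factor PU.1 and spelled AGAGGAAGT, a TCF/LEF class form spelled CTTTGAA, its second version spelled CTTTGAT, the form of GATA factors spelled AGATAAG and the TATA box in its form TATAAA. The core lies within the octamer, and AGAGGAAGT overlaps the reverse complement of ACTTCCT, so those matches are not separate.
Ly6g6d: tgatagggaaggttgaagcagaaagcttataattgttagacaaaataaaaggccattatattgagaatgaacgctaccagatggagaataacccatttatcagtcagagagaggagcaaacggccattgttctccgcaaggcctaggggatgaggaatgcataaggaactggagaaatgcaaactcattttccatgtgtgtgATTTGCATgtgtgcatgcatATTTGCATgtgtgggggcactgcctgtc
Ly6g6f: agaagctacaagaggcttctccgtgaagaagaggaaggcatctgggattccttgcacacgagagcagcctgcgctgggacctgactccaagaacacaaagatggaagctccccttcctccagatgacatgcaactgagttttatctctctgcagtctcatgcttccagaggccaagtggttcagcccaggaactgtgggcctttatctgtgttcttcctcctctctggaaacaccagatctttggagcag
Siglecf: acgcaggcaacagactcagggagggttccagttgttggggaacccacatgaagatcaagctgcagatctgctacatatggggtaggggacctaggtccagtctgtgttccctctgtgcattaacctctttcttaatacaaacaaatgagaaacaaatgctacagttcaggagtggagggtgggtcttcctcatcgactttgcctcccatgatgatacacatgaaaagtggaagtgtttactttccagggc
Cd300lf: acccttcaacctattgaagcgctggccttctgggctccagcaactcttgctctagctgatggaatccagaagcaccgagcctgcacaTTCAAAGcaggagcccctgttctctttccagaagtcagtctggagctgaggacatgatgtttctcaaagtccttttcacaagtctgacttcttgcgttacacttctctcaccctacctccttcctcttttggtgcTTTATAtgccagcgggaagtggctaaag
Ptprc: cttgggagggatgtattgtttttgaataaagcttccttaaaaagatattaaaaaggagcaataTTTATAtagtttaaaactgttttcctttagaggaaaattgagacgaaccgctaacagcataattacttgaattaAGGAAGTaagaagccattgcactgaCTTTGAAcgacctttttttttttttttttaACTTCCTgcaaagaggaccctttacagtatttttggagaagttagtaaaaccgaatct

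The Ly6g6d window (chr17:35081240-35081489, minus strand) held the octamer at 2 places, 48 and 28 bases before the start. An octamer stood in 1.6% of 32851 promoter windows of this length, and 0.0974% held 2 or more. The other 2 Ly6g6d windows held no octamer. One of them (chr17:35078057-35078306) held AGAGGAAGT, found in 0.798% of windows, and ACTTCCT at 2 places, and the last (chr17:35074493-35074742) held none of the motifs. The start shown lies inside the span of Ly6g6f, and the window of Ly6g6f itself (chr17:35085596-35085845, minus strand) held none of the motifs, nor did that of Siglecf (chr7:43351091-43351340, plus strand). The Cd300lf window (chr11:115133993-115134242, minus strand) held a TCF/LEF form, found in 4.46% of windows, and a TATA box, found in 12.4%, read on the opposite strand. Ptprc (chr1:138175306-138175555, minus strand) had ACTTCCT at 2 places, 1 on each strand, a form found in 7.69% of windows, with the same TCF/LEF form and a TATA box. These are matches of letters and not measured binding sites.

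Siglecf was among the genes that differed most with the tuft marker, and its level within tuft marker- cells differed with Lgr5. Its brighter probe stood at 3.57 in Lgr5+ tuft marker+, 3.85 in Lgr5- tuft marker+, -0.37 in Lgr5+ tuft marker- and -3.41 in Lgr5- tuft marker- cells. The other probe gave 3.30, 3.53, -1.77 and -3.53 in the same order. Both tuft marker+ populations were high, Lgr5+ tuft marker- cells lay between, and Lgr5- tuft marker- cells stood close to that array's floor of -3.69. Within Lgr5+ cells Siglecf was 15.4-fold higher with the tuft marker (log2 difference 3.95, scanner error 0.21), and the Lgr5- pair differed 153-fold (7.26, error 0.32). By the other probe these were 33.7-fold and 133-fold. With the normexp background correction, which compresses low signals, the differences of the brighter probe were 3.33 and 4.94.

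Ptprc, whose protein removes the inhibitory phosphate from Src-family kinases, stood at 1.82 in Lgr5+ tuft marker+ and 3.33 in Lgr5- tuft marker+ cells. In Lgr5+ tuft marker- cells it was not well above background, and it was at -2.99 in Lgr5- tuft marker- cells. Ptprc had its lowest point in the opposite tuft marker- population to Siglecf. The difference with the tuft marker was at least 51.3-fold within Lgr5+ (at least 5.68) and 80.0-fold within Lgr5- (6.32, error 0.28). The other Ptprc probe was dimmer, at -1.46 and -0.83 in Lgr5+ and Lgr5- tuft marker+ cells and below background in both tuft marker- populations, which gave at least 5.28-fold and at least 7.26-fold.

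Cd300lf grouped the populations as Siglecf did, with its tuft marker+ levels within the scanner error of each other by the brighter probe. Its brighter probe was at 1.37 in Lgr5+ tuft marker+, 1.57 in Lgr5- tuft marker+ and -0.81 in Lgr5+ tuft marker- cells, but was not well above background in the Lgr5- tuft marker- population. That is 4.52-fold higher with the tuft marker within Lgr5+ (2.18, error 0.21) and at least 38.2-fold within Lgr5- (at least 5.26). The other probe was at -1.22 (Lgr5+) and -0.03 (Lgr5-) with the tuft marker, against -2.02 (Lgr5+) and -2.48 (Lgr5-) without it. Its tuft marker differences were smaller, 1.75-fold in the Lgr5+ pair and 5.48-fold in the Lgr5- pair.

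Ly6g6d was high in both tuft marker+ populations, at 3.94 in Lgr5+ tuft marker+ and 3.69 in Lgr5- tuft marker+ cells, against -0.90 in Lgr5+ tuft marker- and -1.50 in Lgr5- tuft marker- cells. The differences were 28.5-fold within Lgr5+ (4.83, error 0.21) and 36.6-fold within Lgr5- (5.19, error 0.22). Its other probe gave 4.14-fold and 16.1-fold. Ly6g6f was detected only with the tuft marker, at -1.03 in Lgr5+ tuft marker+ and -1.36 in Lgr5- tuft marker+ cells, and was not well above background in either tuft marker- population. Its tuft marker difference was thus at least 7.10-fold in the Lgr5+ pair and at least 5.0-fold in the Lgr5- pair. The spans of both genes overlap in RefSeq, where Ly6g6d carries the synonym of a readthrough transcript with Ly6g6f, so signal from a shared transcript and from either gene cannot be told apart.

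Cd24a was well above background in every population and differed least. Its brighter probe stood at 4.76 in Lgr5+ tuft marker+, 4.01 in Lgr5- tuft marker+, 3.70 in Lgr5+ tuft marker- and 2.50 in Lgr5- tuft marker- cells. The other probe kept this order, at 3.85, 3.39, 2.63 and 1.47. The step in level between the tuft marker+ population without Lgr5 and the tuft marker- population with it was 0.31 by the brighter probe, against an error of 0.20, and 0.76 by the other. Within Lgr5+ cells Cd24a was 2.09-fold higher with the tuft marker (1.07, error 0.20), and within Lgr5- cells 2.85-fold (1.51, error 0.20).

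The 2 probes of Gprc5c, which are annotated to different transcript accessions, did not give the same pattern. The brighter probe stood at 2.94 in Lgr5+ tuft marker+ and 2.35 in Lgr5- tuft marker+ cells and was not well above background in either tuft marker- population. By this probe Gprc5c was at least 111-fold higher with the tuft marker within Lgr5+ and at least 65.6-fold within Lgr5-. The other probe was at -2.56 (Lgr5+) and -1.51 (Lgr5-) with the tuft marker, against -1.54 (Lgr5+) and -2.93 (Lgr5-) without it. By that one it was 2.03-fold lower with the tuft marker within Lgr5+ (-1.02, error 0.27) and 2.66-fold higher within Lgr5- (1.41, error 0.28). Over all genes with several measured probes the median SD between probes of a gene was 0.44 within Lgr5+. For Gprc5c it was 5.53, with the brighter probe taken at its limit, which the median over all genes leaves out.

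**Figure D1:**
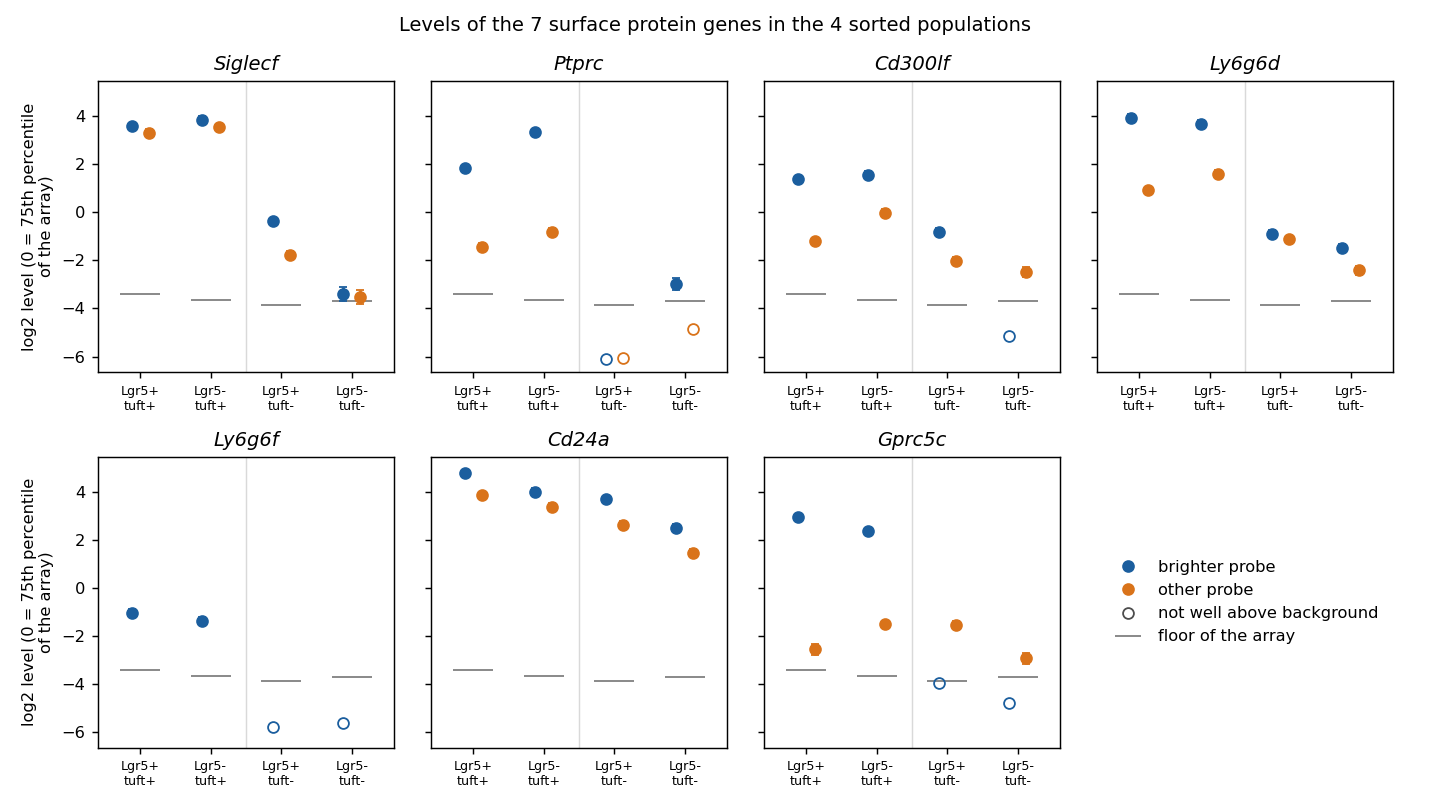
Levels of the 7 genes in the 4 populations, 1 array each, as log2 signal minus the array's 75th percentile. Filled points are well above background with the scanner error as a bar, open points are not, colours separate the probes and grey ticks mark each array's floor. Both Siglecf probes descend from tuft marker+ over Lgr5+ tuft marker- to Lgr5- tuft marker- cells, whereas Ptprc is below background in Lgr5+ tuft marker- cells.

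All 7 genes were at least 2-fold higher with the tuft marker in both Lgr5 classes by their brighter probe, a direction their choice fixes. With normexp it was 6 of 7 in each class, as Cd24a gave 0.90 within Lgr5+ and Ly6g6f 0.79 within Lgr5-. Of all genes measured, 10.4% passed this fold within Lgr5+, 16.3% within Lgr5- and 4.75% in both. No member was 2-fold lower, as 8.08% of genes were within Lgr5+, 12.2% within Lgr5- and 1.38% in both. Counted by probe, 11 of 13 were higher and 1 lower within Lgr5+, where 10.5% and 8.62% of all named probes were, and 13 of 13 were higher and none lower within Lgr5-, where 15.0% and 14.8% were. Ranked among 17501 genes within Lgr5+, Gprc5c was at place 3, Ptprc at 13, Ly6g6d at 38, Siglecf at 92, Ly6g6f at 233, Cd300lf at 418 and Cd24a at 1622. Among 17911 genes within Lgr5-, Siglecf was at place 2, Ptprc at 6, Gprc5c at 7, Cd300lf at 26, Ly6g6d at 28, Ly6g6f at 542 and Cd24a at 1364. A gene given as a limit is ranked by that limit. In bulk populations fewer cells of a type and less RNA per cell cannot be told apart.

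**Figure D2:**
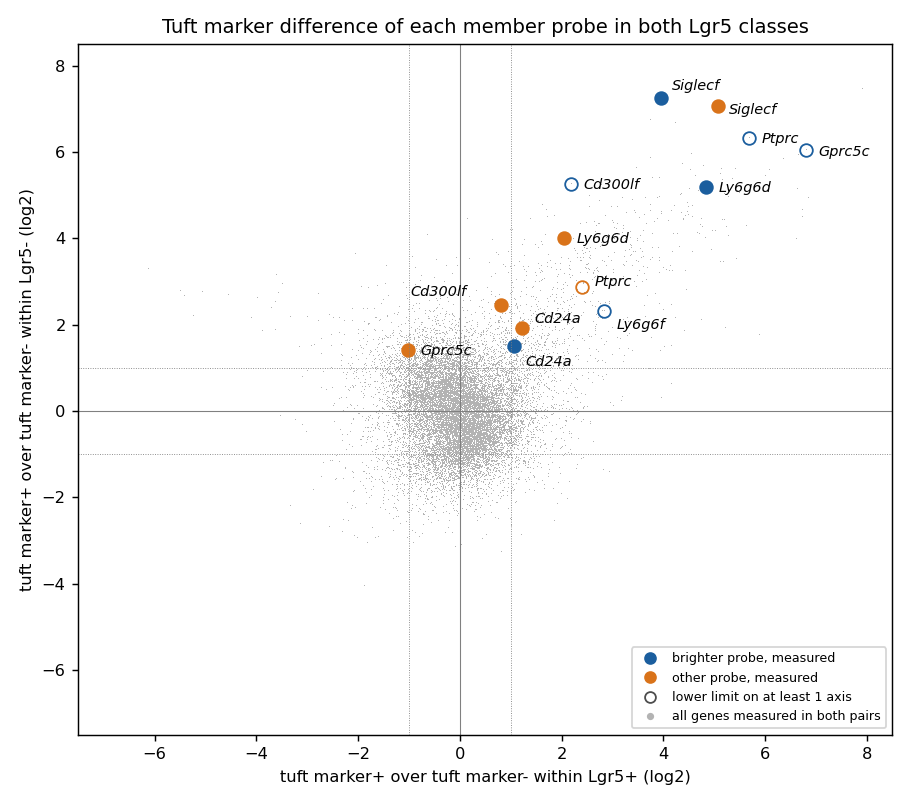
Difference with the tuft marker within Lgr5+ cells (horizontal, log2) against that within Lgr5- cells (vertical, log2) for each of the 13 probes, with all genes measured in both pairs in grey and dotted lines at 2-fold. Open points are lower limits on at least 1 axis. The other Gprc5c probe is the one left of 0, at -1.02 and 1.41.

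Siglecf and Cd300lf differed more with the tuft marker within Lgr5- than within Lgr5+ cells. The Siglecf difference within Lgr5+ minus that within Lgr5- was -3.31 by the brighter probe and -1.98 by the other, with errors of 0.38 and 0.40. For Cd300lf it was -1.65 (error 0.34) by the other probe, while the brighter one gave only a limit within Lgr5-. For Ly6g6d it was -0.36 (error 0.30) by the brighter probe and -1.96 (error 0.32) by the other, and for Cd24a -0.45 and -0.69 (error 0.29 each). The other Gprc5c probe gave -2.43 (error 0.39). A larger difference within Lgr5- was not particular to the members. Medians within Lgr5+ and Lgr5- were 2.68 and 3.48 for other tuft cell genes, 3.46 and 4.19 for macrophage genes and 1.27 and 2.78 for pan-leukocyte genes. Epithelial genes went the other way (0.35 and -0.73). Of all genes, 10.4% were 2-fold higher with the marker within Lgr5+ and 16.3% within Lgr5-. Since the tuft marker+ levels of Siglecf lay within 0.28 of each other, nearly all of its gap came from the tuft marker- arrays.

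Within tuft marker+ cells 6 of 7 members lay under 2-fold between Lgr5 classes. None was 2-fold higher in Lgr5+ tuft marker+ cells relative to Lgr5- tuft marker+ cells, as 8.92% of genes were, and by the brighter probes Ptprc alone was 2-fold lower, as 11.3% were (20.2% were 2-fold apart either way). Ptprc was 2.84-fold lower (-1.51, error 0.20) by its brighter probe and 1.55-fold lower by the other. Cd300lf differed by -0.20, within its error of 0.20, although its other probe gave -1.19. Siglecf differed by -0.28 and Ly6g6d by 0.24, each larger than its error of 0.20 by less than 0.10, but Siglecf gave -0.05 when arrays were scaled to the median. The other Ly6g6d probe gave -0.68. Gprc5c was 1.51-fold higher by its brighter probe (0.59) but 2.06-fold lower by the other (-1.05), and Cd24a was 1.69-fold higher (0.75).

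Within tuft marker- cells 5 members were measured by their brighter probe, since Ly6g6f and Gprc5c were below background there in both populations. Siglecf, Cd300lf and Cd24a were at least 2-fold above in Lgr5+ cells relative to Lgr5- cells, and of all genes 6.44% were higher and 5.25% lower. Siglecf was 8.18-fold higher (3.03, error 0.32) and at place 11 of 17527 genes, with 3.37-fold by its other probe and a log2 difference of 1.33 under normexp. Cd300lf was at least 7.34-fold higher, at place 18, but its other probe gave 1.38-fold and normexp a difference of 0.98. Cd24a was 2.30-fold higher (1.20, error 0.20) and 2.23-fold by its other probe. Ly6g6d was 1.52-fold and 2.44-fold higher by its 2 probes. Ptprc went the other way, at least 1.82-fold lower in Lgr5+ tuft marker- cells by its brighter probe, with its other probe below background in both populations. That limit reached -1.01 with quantile normalization, and the difference was -3.1 without the floor or with the other detection flag, so Ptprc then counted as 2-fold lower. The other Gprc5c probe was 2.61-fold higher (1.39).

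Other genes of tuft cells and of leukocytes were read beside the members, since Ptprc, Siglecf and Cd300lf are also blood cell genes. Of 28 measured genes of a tuft cell list drawn up beside that of the receptors, 21 were at least 2-fold higher with the tuft marker within Lgr5+ and 22 of 27 within Lgr5- (medians 2.68 and 3.48). Of 14 macrophage genes, 11 and 13 were higher (medians 3.46 and 4.19), among them C1qc, a complement subunit (at least 6.65, and 5.92), and Adgre1, the macrophage surface marker F4/80 (at least 5.44, and 5.10). Pan-leukocyte genes were higher for 13 of 19 and 15 of 20 (medians 1.27 and 2.78). These lists are not separate, since Vav1 is in both the tuft cell and the pan-leukocyte list, Trpm5 is in both the tuft cell and the other surface gene list, and the tuft cell genes Ptpn6 and Alox5 are also expressed by myeloid cells. All 14 macrophage genes were well above background in both tuft marker+ populations. Their median level was 2.41 in Lgr5+ tuft marker+, 3.30 in Lgr5- tuft marker+, -1.98 in Lgr5+ tuft marker- and -1.21 in Lgr5- tuft marker- cells. Their summed level, as log2, was 6.54 and 7.47 with the marker (Lgr5+ and Lgr5-) against 5.19 and 5.21 without it, where Csf1r, at 4.74 and 4.71, made up most of the sum. Their part in the differences of the members was not tested. Of the eosinophil list 1 of 8 and 2 of 7 genes were higher, and 2 of 8 and 0 of 7 lower (medians -0.41 and 0.34). Ear6 of this list differed by -1.25 within Lgr5+ and 0.10 within Lgr5-, and Prg3 by -0.88 and 0.25. The ribonuclease gene Ear1 was detected in all populations and higher in both pairs (1.21 and 1.54). The granule gene Prg2 was at least 2.34 higher within Lgr5- but lower within Lgr5+ (by at least 2.02-fold). Adgre4 gave limits of at least 0.73 and at least 0.89, and the granule genes Epx and Ear2 were below background in all populations. Beside 10.4% of all genes within Lgr5+ and 16.3% within Lgr5-, 1 of 9 and 3 of 10 neutrophil genes were higher, 1 of 7 and 4 of 9 T and NK cell genes, 1 of 7 and 3 of 8 B and plasma cell genes, and 3 of 7 in each for mast cells and ILC2. Lower were 1 and 0 neutrophil genes, 0 and 0 T and NK cell genes, 0 and 1 B and plasma cell genes. For mast cells and ILC2 it was 1 and 0, where 8.08% and 12.2% of all genes were lower. The median of epithelial genes was 0.35 in the Lgr5+ pair and -0.73 in the Lgr5- pair, and all 10 were well above background on every array. Of these 10, 2 were higher and 0 lower in the Lgr5+ pair, and 1 was higher and 2 lower in the Lgr5- pair.

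The same lists were read in the Lgr5 pairs. Of the tuft cell genes 8 of 25 were at least 2-fold higher in Lgr5+ tuft marker- than in Lgr5- tuft marker- cells and none lower (median 0.76), among them Plcb2, the taste phospholipase (1.95), and Trpm5, the cation channel downstream of it (2.71). Of the macrophage genes 1 of 14 was higher and 5 lower (median -0.45). For the pan-leukocyte list it was 2 of 18 higher and 3 lower (median -0.03). The shares for everything measured in this pair of arrays were 6.44% (higher) and 5.25% (lower). Adgre1, C1qa, C1qc and Fcgr1 were, like Ptprc, below background in Lgr5+ tuft marker- cells and well above it in Lgr5- tuft marker- cells. Mrc1, the macrophage mannose receptor gene, went opposite to Ptprc and was at least 1.80 higher in Lgr5+ tuft marker- cells. Within tuft marker+ cells the macrophage genes were 2-fold lower with Lgr5 for 8 of 14 (median -1.05), beside 11.3% of everything measured. The tuft cell genes had a median of -0.02 within tuft marker+ cells. Whether these genes and Ptprc come from the same cells was not tested.

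**Figure D3:**
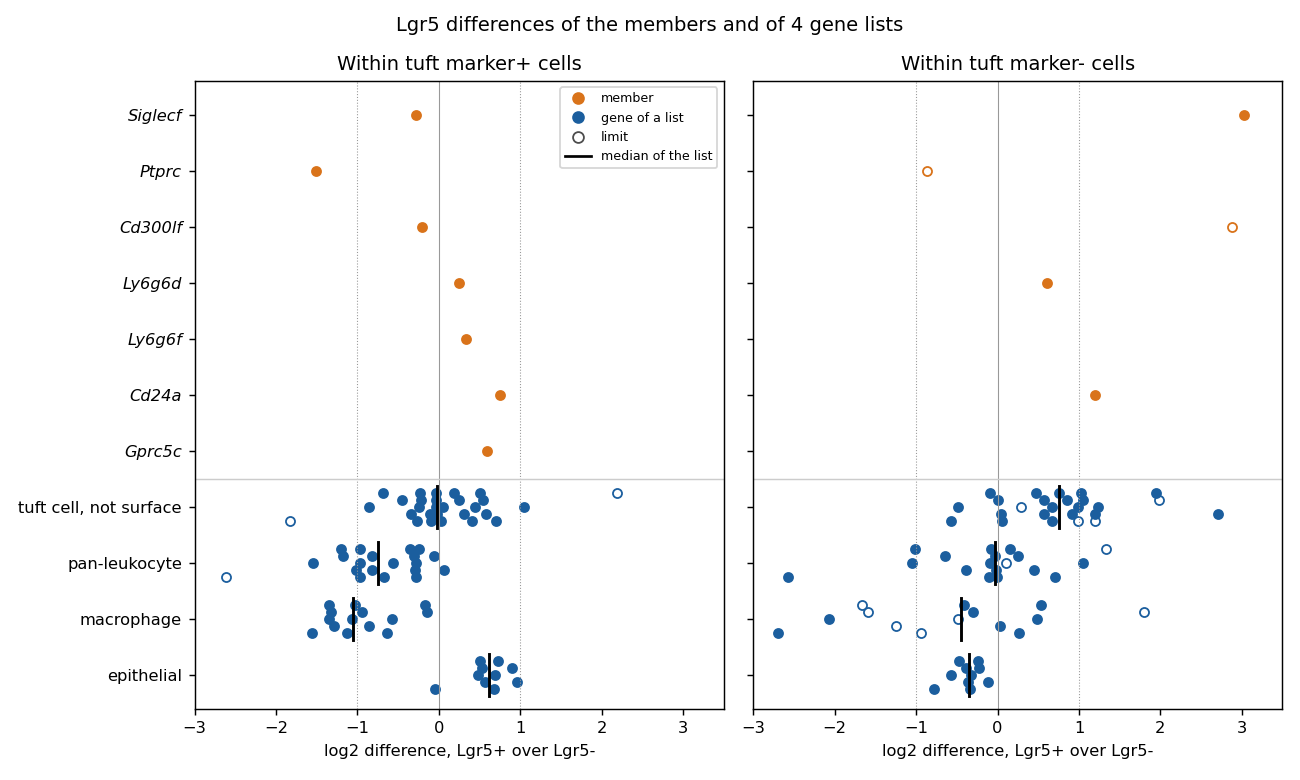
Differences between Lgr5+ and Lgr5- cells (log2) within tuft marker+ cells (left) and tuft marker- cells (right) for the members (orange, brighter probe) and for genes of 4 lists (blue), with the median of each list as a black bar and limits as open points. Genes below background in both populations are left out. Siglecf and Cd300lf lie at 3.03 and at least 2.87 on the right, where the tuft cell list has a median of 0.76 and the macrophage list of -0.45.

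The genes most alike in pattern had the smallest root mean square difference of the 4 centred levels. Candidates were only genes detected on the same arrays as the member, so members detected on different arrays could not share any. There were 189 candidates for Ptprc, 273 for Ly6g6f and for Gprc5c, 363 for Cd300lf and 13947 for each other member. For Siglecf the most alike genes were Trpm5 (0.61), Plcb2 (0.64) and Rgs10 (0.71). For Ptprc they were Pla2g7 (0.34), the chemokine gene Ccl8 (0.35) and C1qc (0.37). Gprc5c by its brighter probe was nearest to Spp1 (0.57), F13a1 (0.67) and Gpnmb (0.80), and Ly6g6d to Vim (0.33), Trem2 (0.34) and Vav1 (0.43). Cd300lf was nearest to Emilin2 (0.50), Tspan6 (0.58) and Plekho1 (0.59), Ly6g6f to Pstpip1 (0.06), Gm34484 (0.08) and Kif5c (0.12), and Cd24a to Rnf144b (0.09), Ccl6 (0.09) and Bckdhb (0.11). For Ly6g6f and Gprc5c 2 of the 4 levels were below background in every candidate, and for Ptprc and Cd300lf 1 was. Such levels were largely alike by construction. With 4 arrays such nearness is a description, and the scale of each value grows with the gene's own range.

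Relatives of the members were set beside the shares of all genes, 10.4% within Lgr5+ and 16.3% within Lgr5-. Of 8 other Siglec genes, 1 passed 2-fold within Lgr5+ and 2 did so within Lgr5-: Cd33, a myeloid Siglec, in both (at least 2.47 and at least 3.39), and Siglec1 within Lgr5- (1.09). Siglecg, which neighbours Siglecf, differed by -0.16 within Lgr5-. Among 8 measured Cd300 genes besides Cd300lf, Cd300c2 (1.97 and 3.41, above the 0.81 and 2.45 of the other Cd300lf probe), Cd300ld3 (1.91 and 2.35) and Cd300ld4 (1.99 and at least 2.62) were higher in both classes, whereas the inhibitory receptor gene Cd300a (0.10 and 0.65) was not. Gprc5a, Gprc5b and Gprc5d were below 2-fold within Lgr5+ or not detected, and Gprc5b was higher within Lgr5- (1.01). In the Ly6 cluster, Ly6g6e lies between Ly6g6d and Ly6g6f in order of start, yet differed by -0.07 within Lgr5+ and 1.38 within Lgr5-, and Ly6g6c by -0.81 and 0.65. Of the other Ly6 genes 2 of 25 were higher within Lgr5+ and 6 of 26 within Lgr5-, and 2 and 1 were lower. Gprc5c and Cd300lf are on chromosome 11 with 11 protein-coding genes between them, 10 of these Cd300 genes, and Cd300a is the one next to Gprc5c.

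**Figure D4:**
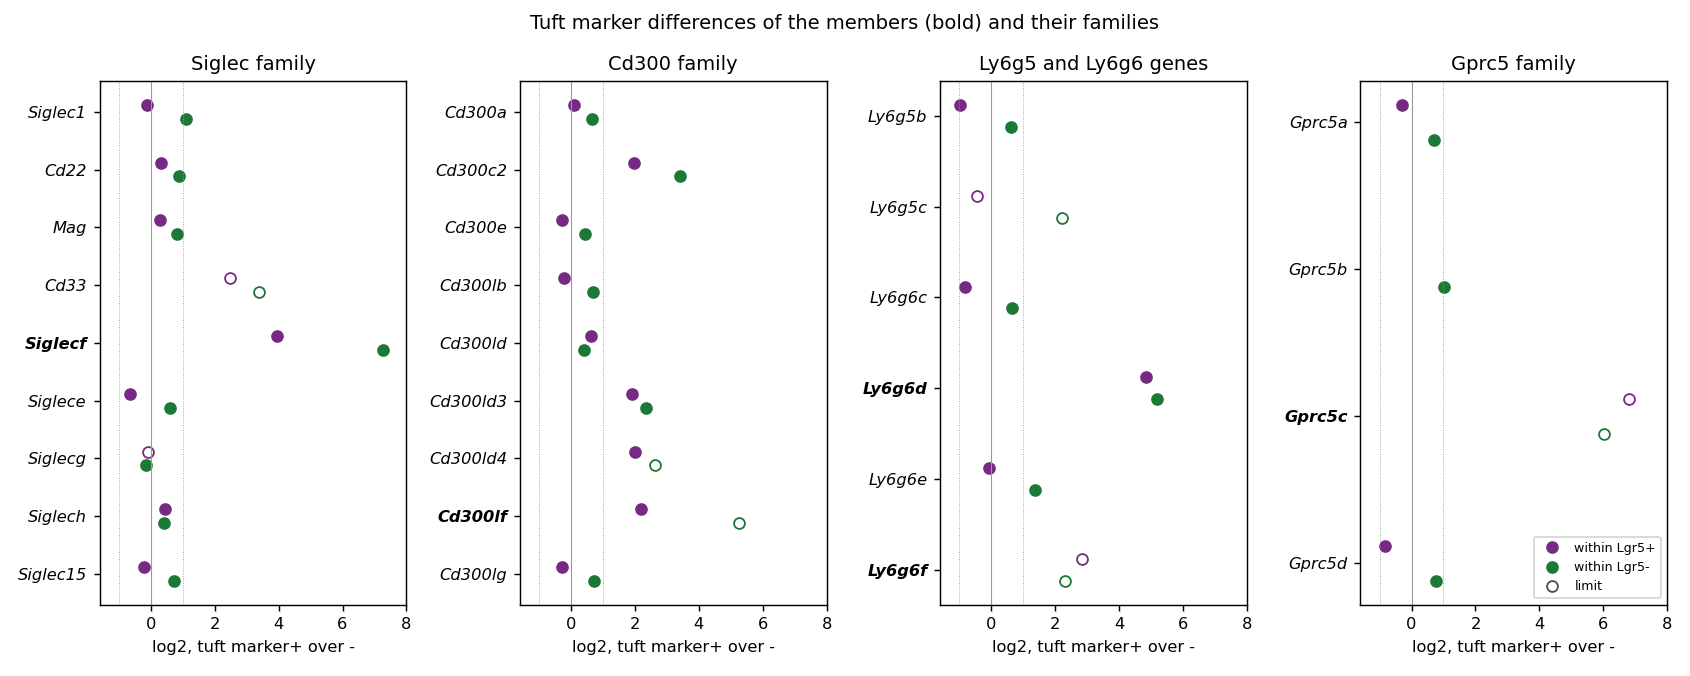
Differences with the tuft marker (log2) of the Siglec, Cd300, Ly6g5 and Ly6g6, and Gprc5 genes, within Lgr5+ cells (purple) and Lgr5- cells (green), with members in bold and limits as open points. Genes below background in both populations are left out. Members are drawn by their brighter probe. Cd300lf lies at 2.18 within Lgr5+, close to Cd300ld4 at 1.99, and its other probe, not drawn, gave 0.81, as the other Gprc5c probe gave -1.02.

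Partners of the members were read in the same way. Of all genes 10.4% were higher within Lgr5+ and 16.3% within Lgr5-, and 8.08% and 12.2% were lower. Siglecf and Cd300lf carry inhibitory motifs in their tails that recruit phosphatases: Ptpn6, which encodes SHP-1, was higher with the tuft marker by 2.97 within Lgr5+ and 3.48 within Lgr5-, and Inpp5d by 2.18 and at least 2.64. The activating adaptors Tyrobp (5.62 and 4.28) and Fcer1g (4.67 and 4.13) led that list, in which 5 of 8 and 4 of 8 genes were higher. Of 13 and 14 measured substrates and partners of CD45, 3 and 6 were higher. Ptprcap, which encodes a CD45-associated protein, differed by 0.12 and 0.55. Among other receptor tyrosine phosphatases 4 of 17 and 5 of 17 were higher, with Ptpro (1.49 and 2.22) and Ptpre (1.52 and 1.59) in front. Enzymes that make sialylated or sulfated Siglec ligands were higher for 7 of 20 and 6 of 21, led by St3gal5, a ganglioside sialyltransferase (3.91 and 2.47). Of 14 genes for ligands of CD24 or lipid anchor synthesis, none was higher within Lgr5+ and 1 was within Lgr5-. Lower within Lgr5+ and Lgr5- were 0 and 2 of these 14, and 1 and 3 of the receptor tyrosine phosphatases. For the CD45 partners and for the ligand enzymes it was 0 and 1 each, and for the list with the adaptors 0 and 0. Among other surface genes of tuft cells 8 of 18 were higher in each class and 1 of 18 lower. The 8 higher genes include Il17rb, the gene of the sorted marker, so its direction is not separate from the sort. Il17rb stood at -0.38 in Lgr5+ tuft marker+, 0.12 in Lgr5- tuft marker+ and -3.13 in Lgr5+ tuft marker- cells. In Lgr5- tuft marker- cells it was below background.

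The arrays were close in quality, with between 60.2% and 69.0% of spots well above background, 15327 to 17157 genes detected and no saturated spot. Lgr5 was at -0.78 in Lgr5+ tuft marker+ cells and -0.80 in Lgr5+ tuft marker- cells and was below background in Lgr5- tuft marker+ cells. It remained detectable at -3.19 in Lgr5- tuft marker- cells. Epcam stood at 5.02 in Lgr5+ tuft marker+, 4.52 in Lgr5- tuft marker+, 5.22 in Lgr5+ tuft marker- and 5.56 in Lgr5- tuft marker- cells. Within Lgr5- cells Epcam was thus 2.06-fold lower with the tuft marker (-1.04), and within Lgr5+ cells it differed by -0.20.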

How the data were processed

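RNA of 4 sorted populations was hybridised to one-colour (Cy3) Agilent arrays, 1 each, after low-input labelling of 13 ng of total RNA, per the labels' protocols. Per the file headers, the deposited scanner intensity had its background subtracted and was detrended by Agilent Feature Extraction 12.0.3.1, while version 11.5.1.1 stands in the submitters' processing notes. The authors also deposited a table of processed intensity, which equals the scanner intensity times 1 constant per array. Its scale is linear without centring of genes. Column medians were 279 (Lgr5+) and 365 (Lgr5-) with the tuft marker and 286 (Lgr5+) and 253 (Lgr5-) without it.

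Control and outlier spots were left out, log2 intensity was taken minus the 75th percentile of each array. Of 56605 probes 32994 were named through their accession and a RefSeq table of GRCm38.p6. Each gene took its probe with the highest mean level, was compared where above background on at least 1 array of a pair, and was counted at 2-fold or more. All 4 arrays lay on 1 slide read in 1 scan. Members and lists were chosen with earlier results of these data known. Named are all members, their families and neighbours, 2 genes per list with the largest mean tuft marker difference, and 3 most alike genes per member. Some genes that this rule takes are not reported here. Genes named beyond this were chosen after their values were seen: Alox5, C1qa, Fcgr1, Csf1r, Prg2, Prg3, Epx, Ear2, Ear6, Ptpn6, Inpp5d and Ptprcap. The call of fold changes was tested on simulated copies of 1 array with scanner noise, in which only genes well above background were raised. Limits for genes below background and variation between arrays were not part of that test. Alternatives were other scalings, the authors' table, quantile normalization, normexp (limma 3.58.1, offset 50, on the median signal because the files used here hold no mean signal), no floor, another detection flag, other probes and a 4-fold threshold.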

Additional observations from a re-analysis of the deposited data

Results flagged for a closer look

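These probes differed between 2 pairs of arrays in opposite directions, each beyond the scanner error. With 1 array per population the difference between the pairs was not tested. With the tuft marker, Siglecf was lower in Lgr5+ cells relative to Lgr5- cells (-0.28 by the brighter probe, -0.23 by the other), and without the marker it was higher (3.03 and 1.75). Both values with the marker were under 2 scanner errors (0.20 each), and the brighter probe gave -0.05 when arrays were scaled to the median. The dimmer Cd300lf probe gave an Lgr5 difference of -1.19 with the marker and 0.46 without it, the latter also under 2 errors (0.26). The dimmer Ly6g6d probe gave -0.68 and 1.28 for the same pairs. The dimmer Gprc5c probe did so on both axes, at -1.05 with the marker and 1.39 without it for Lgr5, and at -1.02 within Lgr5+ and 1.41 within Lgr5- cells for the tuft marker. The brighter probes of Cd300lf, Ly6g6d and Gprc5c were not among these.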

How the results depend on the processing

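The tuft marker differences of the members kept their sign under every alternative listed in the methods, except that of Gprc5c within Lgr5+, which was -1.02 with its other probe. The Lgr5 differences changed sign in 2 of 14 with the mean of all probes, 2 of 12 with the other probe, 1 of 14 with quantile normalization and 1 of 14 with scaling to the median. Where 1 member was 2-fold apart with Lgr5 within tuft marker+ cells, 0 were at the 4-fold threshold. With normexp 6 of 7 members passed 2-fold for the tuft marker in each class. Over the alternatives, Siglecf ran from 3.33 to 5.08 within Lgr5+ and from 4.94 to 7.55 within Lgr5- for the tuft marker, and from 1.33 to 3.1 for Lgr5 within tuft marker- cells. The median of all genes for the tuft marker within Lgr5- was 0.08, against -0.15 when scaled to the median and 0.37 with the authors' values. For Lgr5 within tuft marker+ it was -0.04, 0.14 and -0.21. No paired analysis was possible because each population was 1 array. Low signals near the floor limit the folds against Lgr5- tuft marker- cells. The cause of these shifts was not tested.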
